A study of Mus musculus with 2 samples.

Results

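Serine synthesis and folate one-carbon metabolism were described through 9 enzyme genes, Phgdh, Psat1, Psph, Shmt1, Shmt2, Mthfd1, Mthfd2, Mthfd1l and Tyms, chosen by symbol from the 41214 genes of the deposited table. Each symbol had 1 row, and all 9 genes reached at least 100 normalized reads in 1 of the libraries or both, a floor that 10443 genes passed. The study sorted germinal centre B cells, the dividing B cells that mutate and select their antigen receptors, from spleens of C57BL/6 mice. The cells carried B220, Fas and GL7 and lacked CD138, and were taken on day 10 after intravenous immunization with sheep red blood cells. There were 2 RNA-seq libraries of 1 per group, the first labelled Cbl-/-Cblb-/- (both E3 ubiquitin ligase genes Cbl and Cblb deleted) and the second labelled wild type. Both groups were immunized alike. The deposited table carries the name of a human liver line, HepG2, but lists mouse genes, and its columns bear the sample titles. The number of animals per library, the deleted exons and any Cre driver are not stated in the labels. With 1 library per group no difference has a replicate check and no test was possible, so every comparison below is one between libraries. Values are given under the Cbl-/-Cblb-/- label, for the first library, and under the wild type label, for the second.

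Cells make serine from a glycolytic intermediate in 3 steps, catalysed by the products of Phgdh, Psat1 and Psph. Serine hydroxymethyltransferases pass a carbon from serine to tetrahydrofolate, and the folate-bound carbon is then used for purines, for thymidylate and for methionine. The folate enzymes run in a mitochondrial arm (Shmt2, Mthfd2, Mthfd1l), which releases formate, and a cytosolic arm (Shmt1, Mthfd1), which uses it, while Tyms spends a folate carbon on thymidylate for DNA. Dividing lymphocytes are known for high activity of these pathways, and the transcription factor ATF4 is a known activator of several of the genes, Phgdh, Psat1, Shmt2 and Mthfd2 among them.

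The 250 bases before the RefSeq start (GRCm38.p6) are shown for the 4 genes that differed at least 1.5-fold between the libraries, since they are the sequences on which regulators of these genes could act. They lie at chr5:30073626-30073875 on the minus strand for Tyms, chr3:98339970-98340219 on the minus strand for Phgdh, chr10:127522445-127522694 on the minus strand for Shmt2 and chr10:3972825-3973074 on the plus strand for Mthfd1l. Capitals mark matches, on either strand, to the E box, searched with the letters CACGTG, the CCAAT box, searched as CCAAT, or the Sp1-type GC box, searched with the letters GGGCGG.
Tyms: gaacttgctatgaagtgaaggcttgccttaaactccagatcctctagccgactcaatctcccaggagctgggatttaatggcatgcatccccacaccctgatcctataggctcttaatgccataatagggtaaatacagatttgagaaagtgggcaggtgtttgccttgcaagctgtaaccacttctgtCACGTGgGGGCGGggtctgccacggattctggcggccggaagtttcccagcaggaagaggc
Phgdh: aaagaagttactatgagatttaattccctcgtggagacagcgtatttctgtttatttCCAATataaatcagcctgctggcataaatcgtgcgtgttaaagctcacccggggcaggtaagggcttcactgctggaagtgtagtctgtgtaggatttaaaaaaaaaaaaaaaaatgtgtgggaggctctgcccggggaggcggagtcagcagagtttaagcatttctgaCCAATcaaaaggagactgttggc
Shmt2: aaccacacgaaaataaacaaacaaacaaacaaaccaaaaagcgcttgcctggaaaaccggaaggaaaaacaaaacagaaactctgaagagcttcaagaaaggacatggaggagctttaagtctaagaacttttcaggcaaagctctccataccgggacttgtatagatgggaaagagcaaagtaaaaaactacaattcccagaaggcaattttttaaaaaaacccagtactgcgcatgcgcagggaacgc
Mthfd1l: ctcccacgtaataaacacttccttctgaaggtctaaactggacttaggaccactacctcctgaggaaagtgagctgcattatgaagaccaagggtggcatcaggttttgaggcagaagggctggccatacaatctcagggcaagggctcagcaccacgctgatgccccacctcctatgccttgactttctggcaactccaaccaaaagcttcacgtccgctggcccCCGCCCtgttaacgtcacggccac
The window of Tyms held an E box 61 bases before the start and, 1 base after it, a GC box. That of Phgdh held a pair of CCAAT boxes, 193 and 23 bases before the start, of which the first overlapped a TATA box by 1 base. The window of Shmt2, at 40.8% GC the lowest of the 9 genes, held no match, and that of Mthfd1l a GC box 24 bases before the start. Among the 9 genes, which have 10 such windows because Psat1 has a pair of starts, 6 had a CCAAT box, 6 a GC box, 1 an E box, 1 a TATA box (searched as TATAA) and 1 an E2F-type motif (TTTNNCGC). No window held the composite element bound by ATF4 with C/EBP factors (TGATGNAA). Of all 32851 windows of this kind, 33.8% held a CCAAT box, 32.7% a GC box, 22.8% a TATA box, 6.02% an E box, 4.28% the E2F-type motif and 3.45% the composite element. Such matches are descriptions of letters in these windows and are not binding sites.

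Reads in genes numbered 38223328 for the library labelled Cbl-/-Cblb-/- and 26749540 for the one labelled wild type. The targeted genes were looked at as a check of the labels, and neither was lower under the Cbl-/-Cblb-/- label. In the library labelled Cbl-/-Cblb-/- Cbl stood at 1183 normalized reads, against 169 in that labelled wild type, and Cblb at 2839 under the Cbl-/-Cblb-/- label, against 1001 under the wild type label. Since the deleted exons are not stated, these gene totals cannot settle whether the labels are right. Every direction below is therefore one between labelled libraries and not between genotypes. B cell and germinal centre markers were abundant in both libraries. The 6 B cell markers summed to 197421 normalized reads under the Cbl-/-Cblb-/- label, against 398619 under the wild type label, with 4 of the 6 at least 1.5-fold lower (31.9% of all genes over the floor were), and the 7 germinal centre markers to 67864 under the Cbl-/-Cblb-/- label, against 54234 under the wild type label. The 4 plasma cell markers analysed summed to 7462 under the Cbl-/-Cblb-/- label, against 5790 under the wild type label. Of 6 T cell markers, all but Lck had between 0 and 21.5 normalized reads, and neither library had a read (0) of Alb or Fgb, genes of hepatocytes. The 6 macrophage markers analysed summed to 1276 normalized reads for the library labelled Cbl-/-Cblb-/- against 1518 for the other, but did not share a direction. Cd68 (316 against 755) and C1qa (128 against 373) were lower under the Cbl-/-Cblb-/- label. Vcam1 (329 against 95.9), Csf1r (352 against 250), Lyz2 (95.8 against 37.2) and Mertk (55.2 against 5.72) were higher. The 4 erythroid markers, led by Hbb-bt, summed to 55.9 under the Cbl-/-Cblb-/- label, against 660 under the wild type label. The 14 genes of cycling cells summed to 219820 normalized reads under the Cbl-/-Cblb-/- label, against 151404 under the wild type label, with 4 genes at least 1.5-fold higher and 1 lower, beside 38.6% higher and 31.9% lower among all genes, and a median log2 ratio of 0.30. The part of these cell markers in the results was not tested. In bulk RNA, fewer cells of a type and less RNA per cell cannot be told apart.

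Most of the enzymes lay in the middle range of all genes. Between the library labelled Cbl-/-Cblb-/- and that labelled wild type, 1 of the 9 was at least 1.5-fold higher, as were 38.6% of the 10443 genes, and 3 were at least 1.5-fold lower, as were 31.9% of these genes, while 5 lay within 1.5-fold. The share of lower members was near that of all genes, and the share of higher members below it. The member median log2 ratio, here and below log2 of the normalized reads plus 1 in the library labelled Cbl-/-Cblb-/- over those plus 1 in the library labelled wild type, was -0.15, against 0.15 for all genes over the floor. Their range ran from -1.18 (Tyms) to 0.91 (Mthfd1l), and 7 of the 9 lay within the quartiles of all genes, -0.91 and 1.13. Together the 9 genes took 0.112% of all reads of the library labelled Cbl-/-Cblb-/- (Wilson 95% interval 0.111% to 0.113%) and 0.103% of those of the library labelled wild type (0.102% to 0.104%). After the authors' normalization their sum was 30018 normalized reads under the Cbl-/-Cblb-/- label, against 39489 under the wild type label, where a read counts for 0.699 in the first library and 1.43 in the second. Scaling to total reads in place of the authors' normalization adds 0.52 to every log2 ratio and takes the median of all genes to 0.67. Phgdh (-0.44) and Shmt2 (-0.37) then lie within 1.5-fold, Psat1 (0.80) and Shmt1 (0.62) at least 1.5-fold higher, and Psph (0.36) and Mthfd2 (0.29) above 0. Tyms remains lower at -0.66 and Mthfd1l higher at 1.43. Intervals of reads, ratios and shares cover counting error only.

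**Figure D1:**
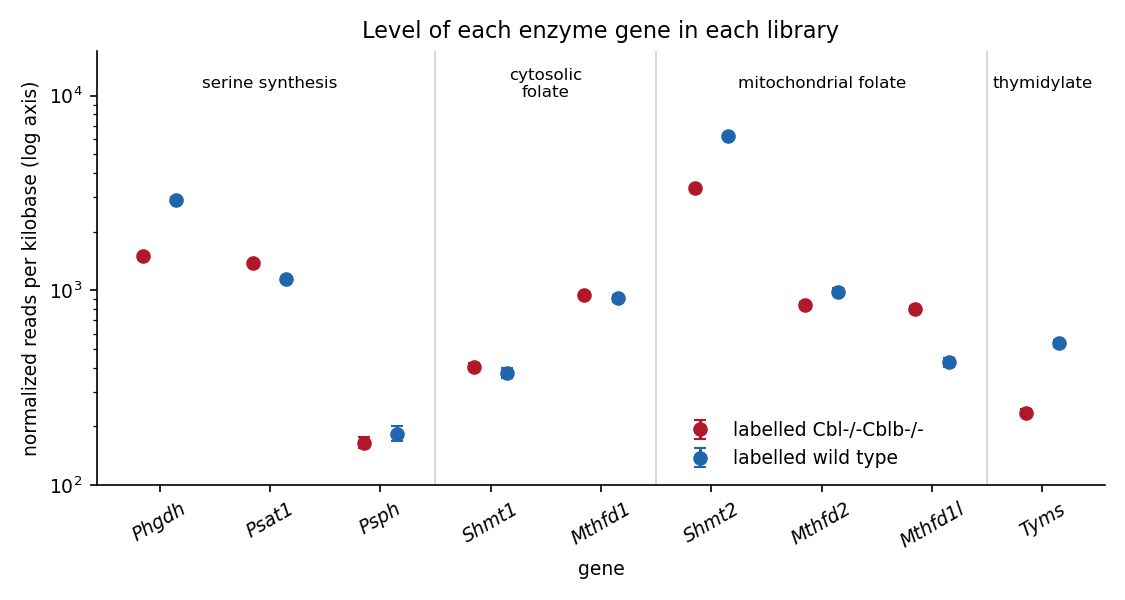
Normalized reads per kilobase (log axis) of the 9 enzyme genes, grouped by role, in the library labelled Cbl-/-Cblb-/- (red, left of each pair) and the library labelled wild type (blue). Bars are exact Poisson 95% intervals, which cover counting error only, and many are smaller than the points. Shmt2 is highest in both libraries (3364 and 6227) and Psph lowest (165 and 183).

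In the serine synthesis steps, the gene of the first enzyme had the lower value in the library labelled Cbl-/-Cblb-/- while the following 2 were near equal. Phgdh, which encodes the dehydrogenase that commits the glycolytic intermediate to serine, had 3730 normalized reads under the Cbl-/-Cblb-/- label, against 7252 under the wild type label. This was a ratio of 0.514 (95% interval 0.495 to 0.535), or 1.94-fold lower. Psat1, the transaminase of the second step, had 5862 normalized reads under the Cbl-/-Cblb-/- label, against 4839 under the wild type label, a ratio of 1.21 (1.16 to 1.26). Psph, the phosphatase that frees serine, had 661 under the Cbl-/-Cblb-/- label, against 735 under the wild type label, a ratio of 0.899 whose interval (0.807 to 1.003) took in equal values. Summed over these 3 genes, the normalized reads were 10253 for the library labelled Cbl-/-Cblb-/-, against 12826 for that labelled wild type, 0.799 of the value (0.779 to 0.821). As a share of all reads the direction was the opposite, 0.0384% under the Cbl-/-Cblb-/- label, against 0.0335% under the wild type label. The direction of this sum thus depends on the scaling.

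Psat1 (ENSMUSG00000024640) lies on chromosome 19 from 15904678 to 15947337 on the minus strand, with no near copy and no overlapping exon. The counts of Phgdh and Psph carry limits of their own. Phgdh (ENSMUSG00000053398, chromosome 3, 98313170 to 98339990, minus strand) has 16 copies elsewhere in the GENCODE M21 annotation of GRCm38, all but 1 of them processed pseudogenes, that match at least 50% of its principal transcript at 90.6% to 98.7% identity. The table lists 7 of them, and these took 7.69 normalized reads under the Cbl-/-Cblb-/- label, against 35.8 under the wild type label, or 0.206% and 0.493% of the reads of Phgdh in the same libraries. Adding them left the log2 ratio at -0.96. Since the handling of reads with several matches was not given, reads of Phgdh lost to its copies cannot be counted. Psph (ENSMUSG00000029446, chromosome 5, 129765558 to 129787449, minus strand) shares 452 exonic bases with Cct6a on the opposite strand. Cct6a itself had 5565 normalized reads under the Cbl-/-Cblb-/- label, against 999 under the wild type label, and the strand setting was not given, so reads of Psph are uncertain in origin.

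Of the mitochondrial folate genes, 1 was lower, 1 near equal and 1 higher. Shmt2, which encodes the hydroxymethyltransferase that takes the carbon from serine in mitochondria, had 7754 normalized reads under the Cbl-/-Cblb-/- label, against 14354 under the wild type label, a ratio of 0.540 (0.526 to 0.555). Mthfd2, the dehydrogenase and cyclohydrolase that follows it, had 2292 under the Cbl-/-Cblb-/- label, against 2681 under the wild type label, a ratio of 0.855 (0.807 to 0.905). Mthfd1l, the synthetase that releases formate from the folate carrier, had 3572 under the Cbl-/-Cblb-/- label, against 1896 under the wild type label, a ratio of 1.88 (1.77 to 2.003). The 3 genes did not share a direction, and their sum was 13618 under the Cbl-/-Cblb-/- label, against 18931 under the wild type label, with Shmt2 the greater part of each. As a share of all reads they took 0.0510% under the Cbl-/-Cblb-/- label, against 0.0495% under the wild type label, so the direction of the sum depends on the scaling. In GRCm38, Shmt2 (ENSMUSG00000025403) lies on chromosome 10 from 127517123 to 127522444 on the minus strand, Mthfd2 (ENSMUSG00000005667) on chromosome 6 from 83305691 to 83325908 on the minus strand, and Mthfd1l (ENSMUSG00000040675) on chromosome 10 from 3973118 to 4167081 on the plus strand.

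Both cytosolic folate genes, Mthfd1 (ENSMUSG00000021048, chromosome 12, 76255298 to 76319803, plus strand) and Shmt1 (ENSMUSG00000020534, chromosome 11, 60788104 to 60811718, minus strand), were near equal. Mthfd1, the trifunctional enzyme that takes formate up into cytosolic folate, had 3143 normalized reads under the Cbl-/-Cblb-/- label, against 3022 under the wild type label, a ratio of 1.04 (0.987 to 1.10). Shmt1, the cytosolic hydroxymethyltransferase, had 1570 under the Cbl-/-Cblb-/- label, against 1458 under the wild type label, a ratio of 1.08 (0.9996 to 1.16). The intervals of both ratios reached equal values. An exon stretch of 184 bases is shared by Shmt1 and Smcr8 on opposite strands, and Smcr8 had 2315 normalized reads under the Cbl-/-Cblb-/- label, against 459 under the wild type label.

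Tyms (ENSMUSG00000025747, chromosome 5, 30058202 to 30073617, minus strand), which encodes thymidylate synthase, had the lowest ratio of the 9. Its 1434 normalized reads from the library labelled Cbl-/-Cblb-/- stood against 3253 in the library labelled wild type, a ratio of 0.441 (0.415 to 0.468) or 2.27-fold lower. It was the only member of the 9 to differ at least 2-fold, which 23.3% of all genes did in the lower direction and 27.8% in the higher.

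In the authors' deposited table, the log2 fold changes of the 9 genes ran from -0.91 (Tyms) to 0.71 (Mthfd1l), with standard errors of 0.92 to 0.95. The smallest unadjusted p that the authors' deposited table lists among them was 0.337 and the smallest adjusted p 0.944, both without replicates.

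**Figure D2:**
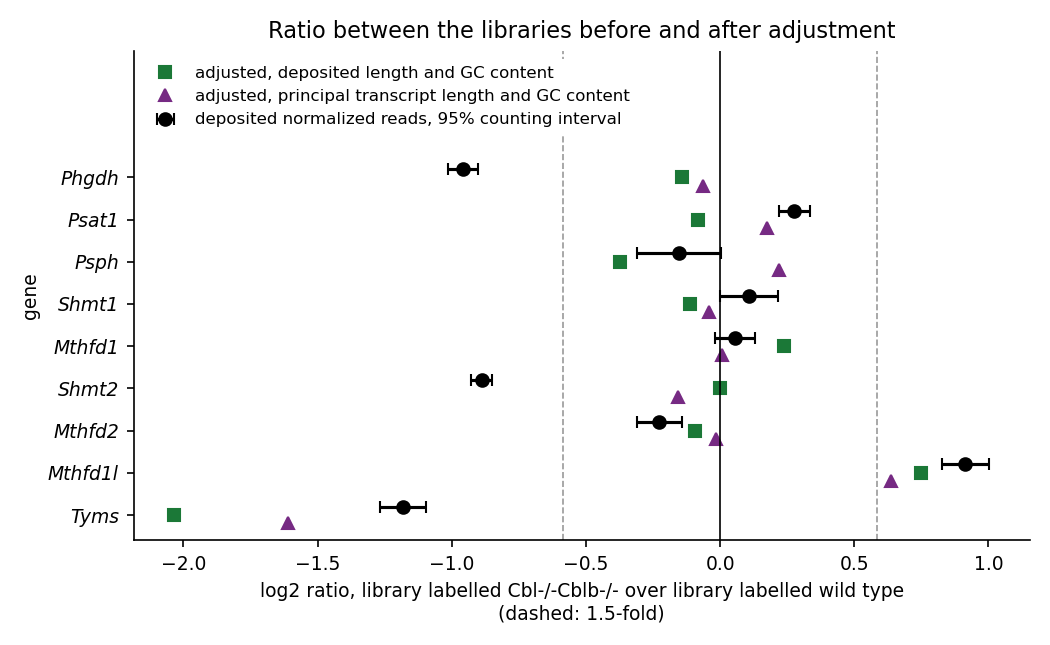
Log2 ratio of each gene between the library labelled Cbl-/-Cblb-/- and the library labelled wild type, from deposited normalized reads (black, with the exact 95% counting interval) and as residuals of fits on length and GC content (green squares: deposited length; purple triangles: principal transcript). Dashed lines mark 1.5-fold. Phgdh moves from -0.96 to -0.14 and Shmt2 from -0.89 to near 0. Mthfd1l moves from 0.91 to 0.75 or, by principal transcript, 0.64. Tyms moves from -1.18 further down, to -2.03 or, by principal transcript, -1.61.

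The log2 ratio moved with gene length. Over all 10443 genes it increased by 0.61 per doubling of the deposited length. The 3 shortest enzyme genes, Shmt2 (2305 bases), Phgdh (2486) and Mthfd2 (2722), fall in a length group of 1306 genes whose median log2 ratio was -0.33. Psat1, Psph, Shmt1 and Mthfd1l, of 3883 to 4435 bases, fall in one with a median of 0.36. Measured against the quartiles of its own length group, 8 of the 9 genes lay inside. The exception was Tyms, at -1.18 where genes of 5681 to 7608 bases had a median of 0.87. What made the ratio move with length was not tested.

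The log2 ratio was fitted by least squares on log2 length, GC content and the squares of both. Over 10386 annotated genes this fit took up 32.1% of the variance. Its residuals, called adjusted ratios, put 1 of the 9 genes at least 1.5-fold higher (26.4% of the genes fitted) and 1 at least 1.5-fold lower (30.3%), with 7 within 1.5-fold. The adjusted ratio of Phgdh was -0.14 and that of Shmt2 was 0.00076. Both are short genes whose longest transcripts were 57.2% and 57.4% GC, the highest GC of the 9. Mthfd1l had an adjusted ratio of 0.75, at percentile 78.4 of the fitted genes, and Tyms one of -2.03, at percentile 3.39. The remaining members lay between -0.37 (Psph) and 0.24 (Mthfd1).

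The deposited length of Tyms, 6089 bases, sums all annotated exons, whereas its principal transcript in GENCODE M21 has 3163 bases. With principal transcript lengths in the fit, Tyms was at -1.61, Mthfd1l at 0.64, Phgdh at -0.06 and Shmt2 at -0.16. Psph then turned from -0.37 to 0.22 and Psat1 from -0.08 to 0.17, so the sign of these small values depended on which length was used. This fit, chosen after the first values were seen, left 1 of the 9 genes higher (24.5% of 9790 genes) and 1 lower (27.6%). Length alone, without GC content, left 1 higher (28.7% of genes) and 2 lower (33.5%), Tyms and Phgdh.

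**Figure D3:**
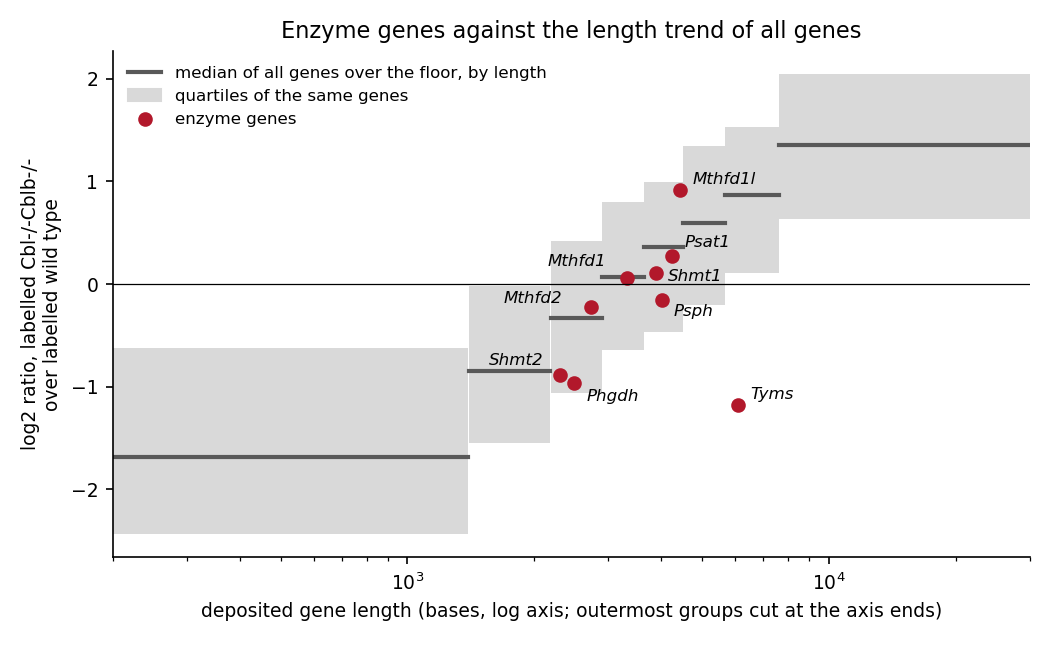
Log2 ratio between the library labelled Cbl-/-Cblb-/- and the library labelled wild type against deposited gene length (log axis). Dark lines are medians and grey bands quartiles of all genes over the floor in 8 length groups, and red points are the 9 enzyme genes. The points follow the upward course of the medians except for Tyms, at -1.18 beside a group median of 0.87.

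Per kilobase, Shmt2 was the most abundant enzyme mRNA in both libraries, with 3364 normalized reads per kilobase under the Cbl-/-Cblb-/- label, against 6227 under the wild type label. These levels stood at percentiles 96.0 and 95.4 of all genes over the floor. Phgdh (1501 and 2917 normalized reads per kilobase) came next and Psat1 (1378 and 1137) after it. Psph was the lowest in both, with 165 and 183. In the library labelled Cbl-/-Cblb-/- the order between these was Mthfd1 (945), Mthfd2 (842), Mthfd1l (805), Shmt1 (404) and Tyms (235), where the Poisson intervals of Mthfd2 and Mthfd1l overlapped. In the library labelled wild type it was Mthfd2 (985), Mthfd1 (909), Tyms (534), Mthfd1l (427) and Shmt1 (375), with overlapping intervals for Mthfd2 and Mthfd1. Length models matter to these ranks. By principal transcript, Psat1 (2240 normalized reads per kilobase) passed Phgdh (1971) and Mthfd2 (1099) passed Mthfd1 (970) in the library labelled Cbl-/-Cblb-/-, and Tyms (1029) passed Mthfd1 (932) in the library labelled wild type.

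A ratio of 2 genes within a library does not depend on how the libraries were scaled. The mitochondrial Shmt2 exceeded the cytosolic Shmt1 8.32-fold per kilobase in the library labelled Cbl-/-Cblb-/- (7.95 to 8.71) and 16.6-fold in that labelled wild type (15.5 to 17.7). The first ratio was 0.502 of the second (0.463 to 0.543). For the formate synthetase step, mitochondrial Mthfd1l over cytosolic Mthfd1 stood at 0.852 (0.818 to 0.887) under the Cbl-/-Cblb-/- label, against 0.470 (0.439 to 0.504) under the wild type label, a 1.81-fold higher ratio (1.67 to 1.96). Mthfd2 over Mthfd1 was 0.891 under the Cbl-/-Cblb-/- label, against 1.08 under the wild type label, a change of 0.822 (0.761 to 0.888). Within serine synthesis, Phgdh over Psat1 was 1.09 under the Cbl-/-Cblb-/- label, against 2.56 under the wild type label, a change of 0.425 (0.402 to 0.449). These levels used the deposited length. By principal transcript, in the same order of libraries, Shmt2 over Shmt1 was 6.17 and 12.3 and Mthfd1l over Mthfd1 0.999 and 0.551. Mthfd2 over Mthfd1 was then 1.13 and 1.38 and Phgdh over Psat1 0.880 and 2.07. The change between libraries is the same with either length.

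Adjustment for length and GC content changed these pairs to different degrees. For Shmt2 over Shmt1 the difference of the log2 ratios was -0.995, against 0.11 between adjusted ratios and -0.12 by principal transcript. For Phgdh over Psat1 it was -1.24, against -0.06 and, by principal transcript, -0.24. For Mthfd2 over Mthfd1 it was -0.28, against -0.33 and -0.02. For Mthfd1l over Mthfd1 it was 0.86, against 0.51 and 0.63.

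**Figure D4:**
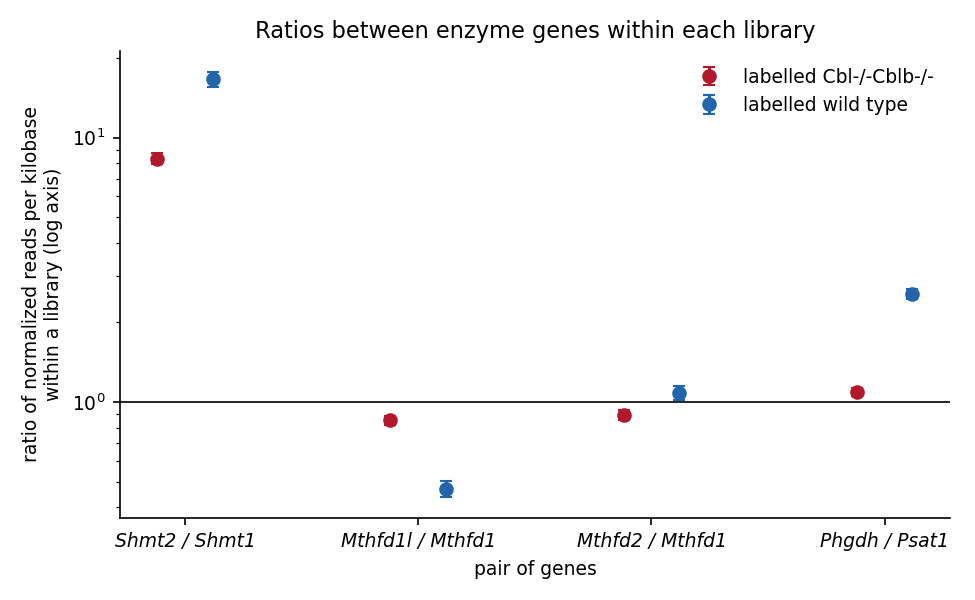
Ratio of normalized reads per kilobase between pairs of enzyme genes within the library labelled Cbl-/-Cblb-/- (red, left) and the library labelled wild type (blue), on a log axis with exact 95% counting intervals and a line at equal levels. By deposited length, Shmt2 over Shmt1 is 8.32 and 16.6, and Mthfd1l over Mthfd1 0.852 and 0.470. By principal transcript, not shown, they are 6.17 and 12.3, and 0.999 and 0.551.

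The genes that carry, recycle and spend folate carbons were counted the same way, over members past the floor. Single genes are given by their log2 ratio, with the ratios adjusted by deposited length and by principal transcript after it. Of 5 genes of folate import, polyglutamation and reduction, the library labelled Cbl-/-Cblb-/- had 1 at least 1.5-fold higher than the library labelled wild type, and 1 lower, beside 38.6% higher and 31.9% lower among all genes, with a median log2 ratio of -0.45. After adjustment 1 was higher and 2 were lower, beside 26.4% and 30.3% of the genes fitted, and the median was -0.04. Slc25a32, the mitochondrial folate carrier, stood at 1.16 (640 normalized reads under the Cbl-/-Cblb-/- label, against 286 under the wild type label; adjusted 0.71 and -0.41) and Slc19a1, the reduced folate carrier of the cell surface, at -0.66 (451 normalized reads under the Cbl-/-Cblb-/- label, against 712 under the wild type label; adjusted -0.64 and -0.20). Fpgs, which adds glutamates to folate, was at -0.58 (adjusted -0.04 and 0.23) and Qdpr, a pteridine reductase, at -0.45 (adjusted 0.20 and 0.34). Folr1 and Folr2, the folate receptor genes, had 0 reads in both libraries, where 3 reads equal 2.10 normalized reads in the first and 4.29 in the second.

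Among 7 other folate enzymes 1 was higher and 2 were lower, beside 38.6% higher and 31.9% lower among all genes, with a median of 0.11. After adjustment 0 were higher and 2 lower, beside 26.4% and 30.3% of the genes fitted, with a median of -0.13. Gcsh, the carrier protein of the glycine cleavage system, was at -0.54 (adjusted -0.16 in both fits), and Mthfsd at -1.52 (adjusted -1.62 and -2.86). Mthfs was at -1.02 (adjusted -2.43 and -0.66), but it has a copy of 99.4% identity that took 203 normalized reads under the Cbl-/-Cblb-/- label, against 409 under the wild type label, more than its own. Gldc, the decarboxylase that glycine cleavage requires, had 0 reads in both libraries.

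The methionine cycle and transsulfuration list had 5 of 9 genes at least 1.5-fold higher and 0 lower, beside 38.6% higher and 31.9% lower among all genes. Its median of 0.90 (adjusted 0.44) compares with 0.15 for all genes, and after adjustment 3 of the 9 were higher and 0 lower, beside 26.4% and 30.3% of the genes fitted. That median was the value of Ahcyl1 (0.90, adjusted -0.05 and 0.24), which is among the 5 higher genes, as is Ahcyl2. Ahcyl1 and Ahcyl2 are like Ahcy by name, and a part of either in the methionine cycle was not tested. The median and the count of higher genes include both, so they are not values of methionine cycle enzymes alone. The 4 genes within 1.5-fold were Mmachc (0.47), Mat2a (0.31), Mtrr (0.28) and Ahcy (0.06). Mtr, the methionine synthase that takes the carbon from methyl-folate, had 1106 normalized reads under the Cbl-/-Cblb-/- label, against 335 under the wild type label (log2 ratio 1.72, adjusted 1.15 and -0.15). Mat2b, a regulatory subunit of the enzyme that makes S-adenosylmethionine, stood at 1.53 (adjusted 0.82 and 1.54), Ahcyl2 at 2.04 (adjusted 0.44 and 1.04) and the transsulfuration gene Cth at 0.99 (adjusted 0.92 and 0.999).

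For purine synthesis, which takes up formyl-folate, 4 of 13 genes were higher and 3 lower, beside 38.6% higher and 31.9% lower among all genes, so neither share exceeded that of all genes. The median was 0.38, and after adjustment it was 0.11 with 2 higher and 3 lower, beside 26.4% and 30.3% of the genes fitted. Atic, whose product uses formyl-folate in the last steps to inosine monophosphate, had 4659 normalized reads under the Cbl-/-Cblb-/- label, against 1671 under the wild type label (1.48, adjusted 0.55 and 1.404). Pfas stood at 1.87 (adjusted 1.17 and 0.91), Ppat, the first committed enzyme, at 1.23 (adjusted 0.56 and 0.37) and Gmps, which makes guanosine monophosphate, at 1.16 (adjusted -0.85 and -1.02). Ppat shares 272 exonic bases with Paics on the opposite strand.

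In pyrimidine and thymidylate synthesis 5 of 17 genes were higher and 7 lower, beside 38.6% higher and 31.9% lower among all genes, and the median was -0.14. Beside Tyms, Tk1, the thymidine kinase of the salvage route, had 3248 normalized reads under the Cbl-/-Cblb-/- label, against 9162 under the wild type label (-1.50, adjusted -1.81 and -0.81). The nucleotide pyrophosphatase gene Dctpp1 was at -2.45 (adjusted -0.83 and -0.86) and the nucleoside diphosphate kinase gene Nme1 at -2.18 (adjusted -2.21 and -2.41), whereas Cad, which starts pyrimidine synthesis, was at 1.37 (adjusted 1.003 and 0.59). Nme1 shares 418 exonic bases with the gene model Gm20390 on the same strand, and Gm20390 had 0 reads in both libraries. Tk1 shares 83 with Afmid on the opposite strand. Afmid had 253 normalized reads under the Cbl-/-Cblb-/- label, against 146 under the wild type label. How reads in shared bases were counted is not stated, so the reads of Nme1 and Tk1 are uncertain. After adjustment 1 of the 17 was higher and 7 were lower, beside 26.4% and 30.3% of the genes fitted.

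ATF4 itself and its known targets did not share a direction. Atf4 had 7387 normalized reads under the Cbl-/-Cblb-/- label, against 4502 under the wild type label (log2 ratio 0.71, adjusted 1.65 and 1.55). Of the 13 genes of the list over the floor, Atf4 included, 5 were higher and 4 lower, beside 38.6% higher and 31.9% lower among all genes, shares close to these, and the median was -0.03. After adjustment 7 were higher and 3 lower, beside 26.4% and 30.3% of the genes fitted, and the median was 0.68. Ddit4 was at 1.16 (adjusted 2.32 and 2.18) and the amino acid transporter gene Slc7a5 at 1.08 (adjusted 1.47 and 1.24), while Pck2 was at -1.18 (adjusted -1.13 and -1.80). The value was -2.58 (adjusted -2.37 and -2.02) for the stress-induced factor gene Ddit3. The known ATF4 targets among the enzymes, Phgdh, Psat1, Shmt2 and Mthfd2, had log2 ratios of -0.96, 0.28, -0.89 and -0.23. In the same order, their adjusted ratios were -0.14, -0.08, 0.00076 and -0.09, and by principal transcript -0.06, 0.17, -0.16 and -0.01.

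**Figure D5:**
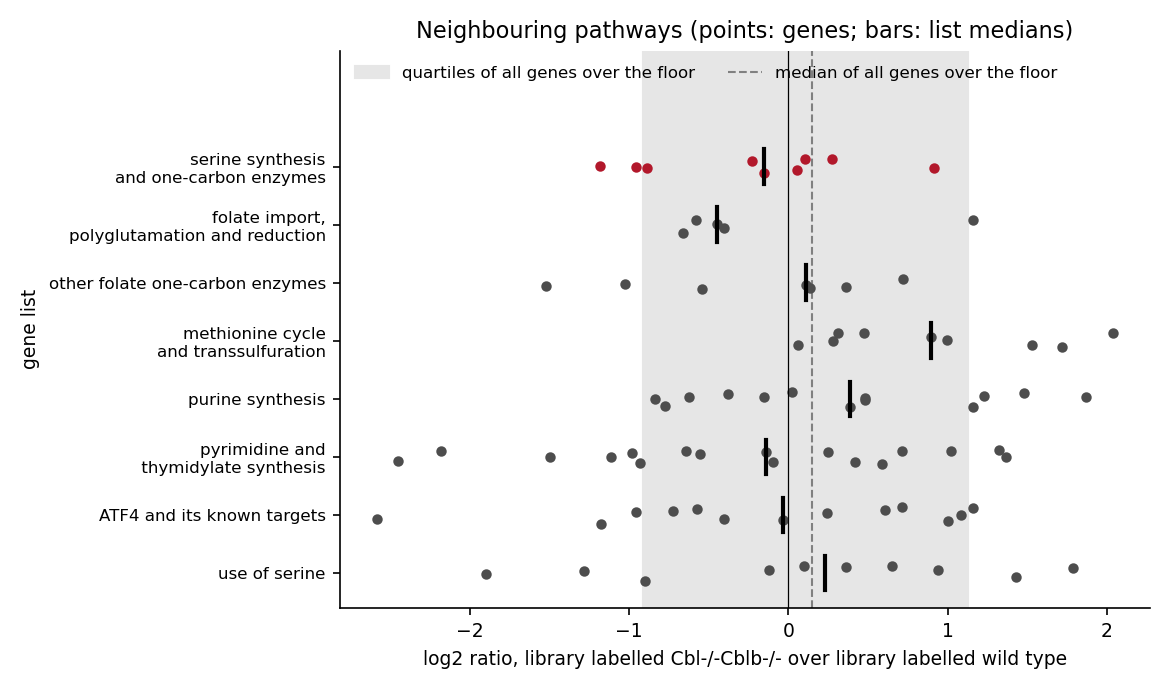
Log2 ratios between the library labelled Cbl-/-Cblb-/- and the library labelled wild type for the 9 enzyme genes (red) and for genes over the floor in 7 neighbouring lists (grey). Black bars are list medians, and the grey band and dashed line are the quartiles and median of all genes over the floor. The enzymes have a median of -0.15 and the methionine cycle list one of 0.90, the value of Ahcyl1, whose part in that cycle was not tested.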

How the data were processed

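TopHat2 2.0.10, DESeq2 1.4.5, featureCounts and GRCm38 appear, without roles, in the submitters' processing notes. The annotation release, the strand setting and the treatment of multiple matches are not stated there. Per the file headers, the deposited signal values were normalized by library size, and 100% of them were whole multiples of the smallest one within 0.001 read, so whole reads were recovered. The authors' FPKM values, per the file headers, were not used for results. Gene length, a mean signal, the log2 fold change with its test score and the p-values are likewise deposited by the authors. No column was left unassigned.

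The library labelled Cbl-/-Cblb-/- was compared with the library labelled wild type using Python 3.11.15, numpy 2.4.6, pandas 2.3.3 and scipy 1.17.1. Log2 ratios had a pseudocount of 1. With no residual degrees of freedom, no count test on the recovered reads was run. Ratio intervals are exact conditional 95% intervals. Fits on length and GC content used GENCODE M21, and copies were sought with blastn at 90% identity over at least 50% of a transcript. The scripts were tested on simulated data. Members and lists were chosen with earlier results of these data known. Genes of the lists were named by the 4 largest absolute log2 ratios per list over the floor, with Atf4 added, and some genes under the rule are not reported here. Genes chosen after their values were seen were Cct6a, Smcr8, Paics, Gm20390, Afmid, Gldc, Folr1 and Folr2, and Lck, Alb, Fgb and Hbb-bt among the markers. Ahcyl1, Mmachc, Mat2a, Mtrr and Ahcy were also named after their values were seen. Adgre1 and Jchain were not analysed here.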

Additional observations from a re-analysis of the deposited data

How the results depend on the processing

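The enzyme counts depended on scaling. Scaling to total reads added 0.52 to every log2 ratio, and gave 3 genes higher, 1 lower and a median of 0.36, beside a median of 0.67 for all genes, with Psph and Mthfd2 turning positive. Scaling to the total without immunoglobulin genes gave 3 higher, 1 lower and 0.36, beside a median of 0.66 for all genes. In both scalings the member median was thus below that of all genes. The shares of all genes higher or lower were not counted under either scaling, so these member counts have no background beside them. Adjustment for length and GC content left 1 gene lower, and turned Shmt2 to 0.00076. The fit on principal transcript length, chosen after seeing the data, also left 1 lower. At a 2-fold threshold 0 were higher and 1 lower. Centring on the median of all genes took Shmt1 to -0.04 and Mthfd1 to -0.09. That centring, a pseudocount of 10, a floor of 20 or none, and adjustment for length alone (1 higher, 2 lower) kept the counts within 1.5 times and the median between -0.30 and -0.05. Mthfd1l stayed positive and Tyms negative under all these settings. No paired analysis was possible because each group holds 1 library. Each enzyme had at least 514 reads in either library, and the missing replicates, the scaling, the length and GC trend and the label check all limit these comparisons.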

Other observations

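A list drawn up for the use of serine outside the folate cycle had shares of higher and lower members near those of all genes. Of 10 over the floor, the library labelled Cbl-/-Cblb-/- had 4 at least 1.5-fold higher and 3 lower, beside 38.6% higher and 31.9% lower among all genes, and a median log2 ratio of 0.23. After adjustment for length and GC content 1 was higher and 3 were lower, beside 26.4% and 30.3% of the genes fitted, and the median was 0.11. Both seryl-tRNA synthetase genes were lower, the cytosolic Sars with 3181 normalized reads under the Cbl-/-Cblb-/- label, against 11859 under the wild type label (-1.90, adjusted -1.77 by deposited length and -2.03 by principal transcript) and the mitochondrial Sars2 with 970 under the Cbl-/-Cblb-/- label, against 2359 under the wild type label (-1.28, adjusted near 0 and -0.11). Serinc5 had 3921 normalized reads under the Cbl-/-Cblb-/- label, against 1135 under the wild type label (1.79, adjusted 1.14 and 0.70) and Serinc1 1796 under the Cbl-/-Cblb-/- label, against 665 under the wild type label (1.43, adjusted 0.42 and 0.80). Serinc1 and Serinc5 are both among the 4 higher genes, and whether their products use serine was not tested. Sds, which encodes a serine dehydratase, had 0 reads in both libraries.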
